A study of Mus musculus with 8 samples.

Results

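The 10 genes described here encode the transcription factors Atf4 and Ddit3, the stress effectors Trib3, Chac1 and Sesn2, asparagine synthetase (Asns), and the enzymes of serine and glycine synthesis Phgdh, Psat1, Psph and Shmt2. They were chosen by symbol, with earlier results of these data known, and all 10 were found among the 25124 genes of the deposited expression table. RNA was sequenced from osteoclast precursor (OCP) cells, which are adherent macrophages grown from mouse bone marrow, in 4 groups with 2 libraries each. Every group received 30 ng/mL M-CSF, the survival factor of macrophages. The no PRDX1 + no RANKL group received nothing else, the PRDX1 + no RANKL group received 200 nM recombinant PRDX1, the no PRDX1 + RANKL group received 100 ng/mL RANKL, and the PRDX1 + RANKL group received both, each for 48 h. The study asked how PRDX1 outside the cells changes gene expression with and without RANKL. RANKL is the cytokine that drives osteoclast formation, and PRDX1 is a peroxiredoxin that was added here from outside the cells. The protein was His-tagged, was made in *E. coli* and was passed over an endotoxin-removal resin. The labels give C57BL/6 mice of 6 to 8 weeks as the source of the marrow, whereas the study's cell culture methods name 6-week-old male ICR mice. Its section on mice allows for either background, C57BL/6J or ICR. Neither the labels nor the study states that the 2 libraries of a group came from separate animals. The p-values thus measure the spread between these libraries only.

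ATF4 is the transcription factor of the integrated stress response. When eIF2 is phosphorylated by a sensor of amino acid shortage, unfolded protein, heme shortage or double-stranded RNA, general translation falls and *Atf4* mRNA is translated more, so that the factor is set largely by translation rather than by the amount of its mRNA. ATF4 then turns on genes for amino acid uptake and synthesis, and with sustained stress *Ddit3* (CHOP). PHGDH, PSAT1 and PSPH carry the successive steps from a glycolytic intermediate to serine, and SHMT2 converts serine to glycine in mitochondria and passes a carbon unit to folate. ATF4 dimerizes with C/EBP factors on C/EBP-ATF response elements in the promoters of its targets.

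The cells carried macrophage markers in all groups. The FPKM (fragments scaled to transcript length and library size, a level per length) of the 8 macrophage markers summed to between 15720 and 17480 in the no PRDX1 + no RANKL libraries, 16550 and 17010 with PRDX1, 9857 and 10280 with RANKL, and 13420 and 13820 with both, most of it *Lyz2*, a lysozyme gene (mean FPKM from 8597 with RANKL to 14120 without either protein). Of the 8, 6 were called lower for RANKL without PRDX1 and 4 higher for PRDX1 with RANKL, as were 9.96% and 6.03% of all genes. Their part in the results below was not tested. The 10 osteoclast markers summed to 44.81 and 45.45 without either protein and to 88.11 and 92.41 with PRDX1. They summed to 1884 and 1987 with RANKL, and to 250.9 and 258.5 with both. With PRDX1 alone most of the sum was *Acp5* (mean FPKM 53.69, against 23.65 without either protein) and *Atp6v0d2* (22.75 against 6.989). *Nfatc1* (7.696 against 10.3) and *Itgb3* (0.662 against 1.877) were lower there. Of the 9 osteoclast markers tested, 7 had a positive and 2 a negative log2 change by PRDX1 without RANKL. In bulk RNA, a changed number of cells of a type and a changed amount of RNA per cell cannot be told apart. The libraries held from 24542578 to 41712971 reads on genes. Within each group the 2 libraries differed beyond counting noise, and the first principal component carried 69.3% of the variance. Fold changes were fitted with limma on log2(FPKM + 1) over the 11700 genes whose mean FPKM reached 0.5, all 10 genes described among them. A gene was called, and is said to have risen or fallen, at an adjusted p under 0.05 together with a change of 1.5-fold or more. This scale understates the change of genes with a low FPKM.

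The promoters of *Trib3*, *Chac1* and *Asns* held the core letters of the C/EBP-ATF response element, TGATG followed by any base and AA, searched on both strands from 250 bases before to 50 after the start of transcription. The element was found in 3 of the 10 promoters and in 1304 of all 32851 promoters of the same length (3.97%). The endoplasmic reticulum stress element, CCAAT and CCACG separated by 9 bases, was found in none of the 10 promoters and in 39 of the 32851 (0.119%). A match describes these letters only and is not evidence of binding, and a window without a match says nothing about the factor. The stretches that hold the element are shown because these 3 genes differ below in their responses to RANKL and PRDX1. They are RefSeq sequences of GRCm38.p6, printed 5′ to 3′ on the strand of the gene, with the element in capitals. In *Trib3* (chr2:152344036-152344116, minus strand) it lay on the opposite strand from base 15 to 22 after the start, in *Chac1* (chr2:119350992-119351126, plus strand) on the opposite strand from base -193 to -186, and in *Asns* (chr6:7693185-7693302, minus strand) on the gene's strand from base -23 to -16.
Trib3: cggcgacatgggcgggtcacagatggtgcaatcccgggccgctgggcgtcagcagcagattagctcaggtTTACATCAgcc
Chac1: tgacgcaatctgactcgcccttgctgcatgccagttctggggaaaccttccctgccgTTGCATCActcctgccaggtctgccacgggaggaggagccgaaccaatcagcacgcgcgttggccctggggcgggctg
Asns: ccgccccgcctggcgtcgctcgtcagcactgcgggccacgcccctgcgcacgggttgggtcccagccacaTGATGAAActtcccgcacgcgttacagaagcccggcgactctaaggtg

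*Atf4* mRNA varied little between the groups. *Atf4* (NM_001287180, mm10, chr15:80255184-80257545, plus strand) had the highest FPKM of the 10 genes in every library. Its FPKM was 120.1 and 124.2 in the 2 no PRDX1 + no RANKL libraries, 132.9 and 127.5 with PRDX1, 147.1 and 154.0 with RANKL, and 138.1 and 131.9 with both. The PRDX1 and PRDX1 + RANKL libraries overlapped, and both lay above the untreated and below the RANKL libraries. None of its log2 fold changes reached 1.5-fold. The largest was 0.30 ± 0.05 (SE) for RANKL without PRDX1 (limma, adjusted p = 0.000367). PRDX1 gave 0.09 without RANKL (adjusted p = 0.189). In the presence of RANKL it gave -0.16 (adjusted p = 0.0244). ATF4 protein was not measured here.

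*Ddit3* and *Trib3* rose with PRDX1, with and without RANKL, and did not rise with RANKL. *Ddit3* (NM_001290183, chr10:127290793-127296288, plus strand) encodes CHOP, which promotes cell death under prolonged stress. It had FPKM values of 15.3 and 16.3 in the untreated libraries, 39.9 and 37.2 with PRDX1, 13.5 and 14.01 with RANKL, and 29.3 and 29.0 with both. All 4 libraries with PRDX1 lay above all 4 without it. PRDX1 gave a log2 fold change of 1.23 ± 0.06 (SE, limma, adjusted p = 5.2e-07) without RANKL and 1.03 ± 0.06 (adjusted p = 7.9e-07) with RANKL. RANKL gave -0.19 without PRDX1 (adjusted p = 0.021) and -0.39 with PRDX1 (adjusted p = 0.000658), both under the fold of 1.5. *Ddit3* shares 68 bases with *Mars* on the other strand, and reads were counted without regard to strand.

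*Trib3* (NM_175093, chr2:152337425-152344060, minus strand) encodes a pseudokinase that is induced by ATF4 and CHOP and holds them back in turn. Its FPKM was 2.84 and 3.35 in the untreated libraries, 9.20 and 9.90 with PRDX1, 2.49 and 2.40 with RANKL, and 8.92 and 8.84 with both. It showed the largest change of the 10 genes in both PRDX1 comparisons, again with all libraries with PRDX1 above all without. The log2 fold change by PRDX1 was 1.37 ± 0.08 (SE, limma, adjusted p = 2.46e-06) without RANKL and 1.52 ± 0.08 (adjusted p = 5.69e-07) with RANKL, and the ratios of the mean FPKM were 3.09 and 3.63. The interaction, which is the change by PRDX1 with RANKL minus that without, was 0.15 for *Trib3* (95% interval -0.12 to 0.42, adjusted p = 0.419) and -0.20 for *Ddit3* (-0.39 to -0.01, adjusted p = 0.12). Neither was called, which does not show that the responses were alike.

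Taken within each library, the FPKM of *Ddit3* was 0.128 and 0.131 times that of *Atf4* in the untreated libraries and 0.300 and 0.292 times with PRDX1. It was 0.0917 and 0.0910 times with RANKL and 0.212 and 0.220 times with both. The ratio of *Trib3* to *Atf4* was 0.0236 and 0.0269 in the untreated libraries, 0.0692 and 0.0777 with PRDX1, 0.0169 and 0.0156 with RANKL, and 0.0646 and 0.0670 with both. Both ratios were higher in all 4 libraries with PRDX1 than in any without it, and they do not depend on how the libraries were scaled.

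**Figure D1:**
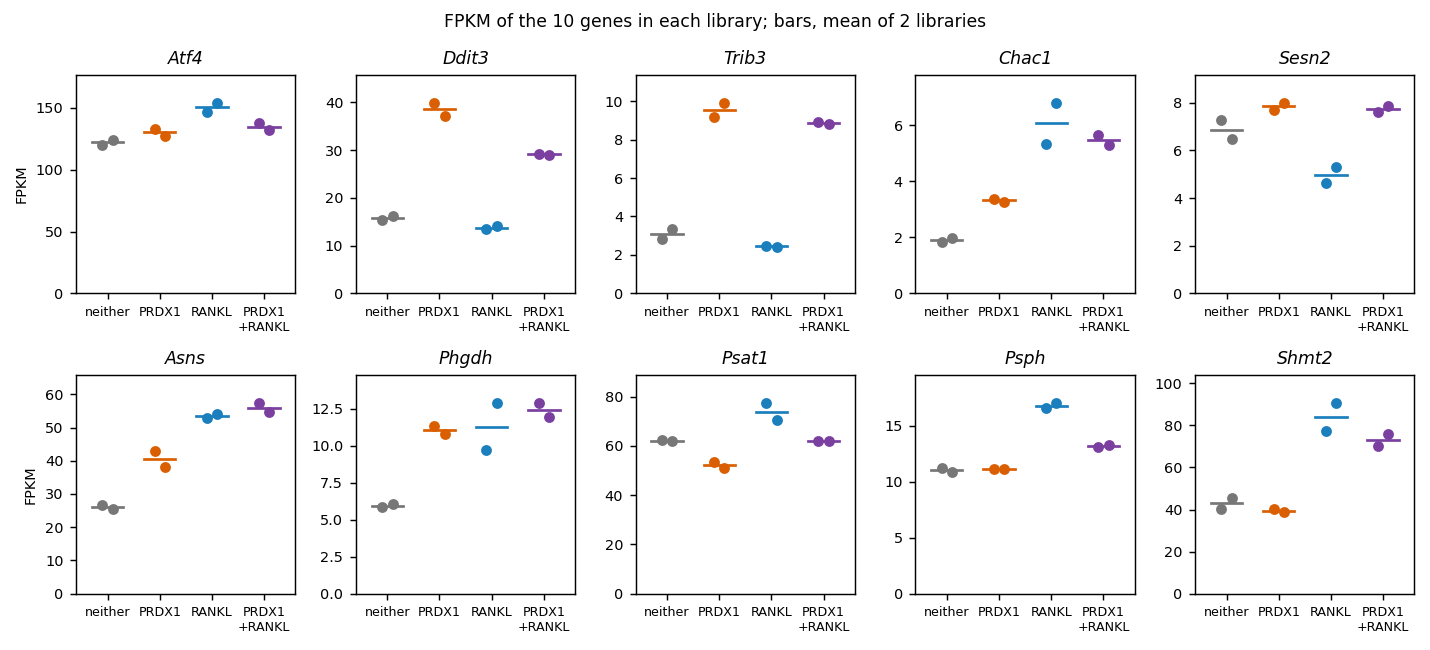
Level of each of the 10 genes in each library (vertical axis, FPKM on a linear scale from 0) by group (horizontal axis), with one point per library and a bar at the mean of 2 libraries. Ddit3 and Trib3 were high in the 4 libraries with PRDX1, Shmt2 in the 4 with RANKL, and Asns and Phgdh were lowest in the untreated libraries.

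*Chac1* rose with RANKL in the absence of PRDX1. *Chac1* (NM_026929, chr2:119351242-119354327, plus strand) encodes an enzyme that degrades glutathione and is induced through ATF4. Its FPKM was low, at 1.83 and 1.97 in the untreated libraries (85 and 129 reads), 3.38 and 3.28 with PRDX1, 5.34 and 6.79 with RANKL, and 5.63 and 5.30 with both. The untreated libraries were lowest, those with PRDX1 next, and the 2 groups with RANKL were highest and overlapped. RANKL without PRDX1 gave a log2 fold change of 1.28 ± 0.10 (SE, limma, adjusted p = 2.8e-06). PRDX1 without RANKL gave 0.58 (adjusted p = 0.00235), a fold of 1.49 that fell just short of 1.5 and passed it with a pseudocount of 0.1 (0.78), with voom on the reads (0.79) and with scaling to the upper quartile (0.61). RANKL with PRDX1 also gave 0.58 (adjusted p = 0.00159), which passed 1.5-fold with a pseudocount of 0.1 (0.70) and with voom (0.73).

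*Sesn2* (NM_144907, chr4:132492807-132510456, minus strand) encodes sestrin 2, which restrains mTORC1 when leucine is short. It had FPKM values of 7.28 and 6.46 in the untreated libraries, 7.71 and 7.98 with PRDX1, 4.63 and 5.29 with RANKL, and 7.60 and 7.86 with both. The RANKL libraries were the lowest, and the 2 groups with PRDX1 overlapped. The log2 change by PRDX1 with RANKL was 0.55 ± 0.08 (SE, limma, adjusted p = 0.000502), a fold of 1.47 that was not called. With a pseudocount of 0.1 and with voom it was 0.63 and was called, as it was at 0.63 without no PRDX1 + RANKL replicate 2. RANKL without PRDX1 gave -0.40 (adjusted p = 0.00212).

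*Asns* and *Phgdh* rose with either protein given alone. *Asns* (NM_012055, chr6:7675165-7693209, minus strand) encodes the enzyme that makes asparagine from aspartate and glutamine. Its FPKM was 26.5 and 25.4 in the untreated libraries, 43.1 and 38.1 with PRDX1, 52.8 and 54.0 with RANKL, and 57.3 and 54.7 with both. The 4 groups did not overlap, and the 2 groups with RANKL lay closest together. RANKL without PRDX1 gave a log2 fold change of 1.01 ± 0.06 (SE, limma, adjusted p = 4.25e-07) and PRDX1 without RANKL gave 0.62 ± 0.06 (adjusted p = 6.83e-05). The latter was 0.54, under the fold of 1.5, without PRDX1 + no RANKL replicate 1. With RANKL present, PRDX1 gave 0.07 (95% interval -0.07 to 0.21, adjusted p = 0.426).

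*Phgdh* (NM_016966, chr3:98313171-98339969, minus strand) encodes phosphoglycerate dehydrogenase, the entry enzyme of serine synthesis. It had FPKM values of 5.87 and 6.04 in the untreated libraries, 11.3 and 10.8 with PRDX1, 9.69 and 12.9 with RANKL, and 12.9 and 11.96 with both. The untreated libraries lay below all others, those with both proteins lay above those with PRDX1, and the RANKL libraries were the most spread and overlapped both of these groups. RANKL without PRDX1 gave a log2 fold change of 0.81 ± 0.11 (SE, limma, adjusted p = 0.000107) and PRDX1 without RANKL gave 0.79 ± 0.11 (adjusted p = 0.000461). PRDX1 on top of RANKL gave 0.14 (95% interval -0.10 to 0.38, adjusted p = 0.331). The annotation also lists a pseudogene, *Phgdh-ps1*, on chromosome 7, and how reads shared with it were counted is not given in the sources used here.

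Neither *Psat1* nor *Psph*, which follow *Phgdh* in serine synthesis, was called for PRDX1 by limma or voom. *Psat1* (NM_177420, chr19:15905123-15925059, minus strand), the transaminase of the pathway, had FPKM values of 62.2 and 61.9 in the untreated libraries, 53.5 and 51.0 with PRDX1, 77.3 and 70.4 with RANKL, and 62.0 and 61.9 with both. It was highest with RANKL and lowest with PRDX1. Its log2 fold changes by PRDX1 were -0.24 in the absence of RANKL (limma, adjusted p = 0.00764) and -0.25 in its presence (adjusted p = 0.00462), and neither reached the fold of 1.5. *Psph* (NM_133900, chr5:129765558-129787253, minus strand), the phosphatase of the last step, had 11.3 and 10.8 in the untreated libraries, 11.1 in both libraries with PRDX1, 16.6 and 17.0 with RANKL, and 13.1 and 13.3 with both. RANKL without PRDX1 gave 0.56 ± 0.06 (SE, adjusted p = 1.89e-05) for *Psph*, a fold of 1.48. It passed 1.5-fold with a pseudocount of 0.1 (0.60), with voom (0.63) and without no PRDX1 + no RANKL replicate 1 (0.59). PRDX1 gave 0.01 without RANKL (adjusted p = 0.923). In its presence the change was -0.32 (adjusted p = 0.00153).

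*Shmt2* (NM_001252316, chr10:127517123-127522444, minus strand) rose with RANKL, with and without PRDX1. Its FPKM was 40.2 and 45.6 in the untreated libraries, 40.1 and 38.9 with PRDX1, 77.5 and 90.5 with RANKL, and 70.4 and 75.7 with both. All 4 libraries with RANKL lay above all 4 without it. The log2 fold change by RANKL was 0.95 ± 0.08 (SE, limma, adjusted p = 4.32e-06) without PRDX1 and 0.87 ± 0.08 (adjusted p = 2.57e-05) with PRDX1. PRDX1 gave -0.11 in the absence of RANKL (adjusted p = 0.339) and -0.20 in its presence (adjusted p = 0.0808). *Shmt2* shares 34 bases with *Ndufa4l2* on the other strand.

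Within a library, the balance of the enzymes differed between the groups. *Psat1* had 10.6 and 10.3 times the FPKM of *Phgdh* in the untreated libraries, 4.72 and 4.73 times with PRDX1, 7.97 and 5.48 times with RANKL, and 4.82 and 5.18 times with both. The ratio was highest without either protein, and the 2 groups with PRDX1 lay below every library without it. The ratio of *Psph* to *Phgdh* showed the same order, from 1.92 and 1.79 in the untreated libraries and 1.71 and 1.32 with RANKL to 0.980 and 1.03 with PRDX1 and 1.02 and 1.11 with both.

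**Figure D2:**
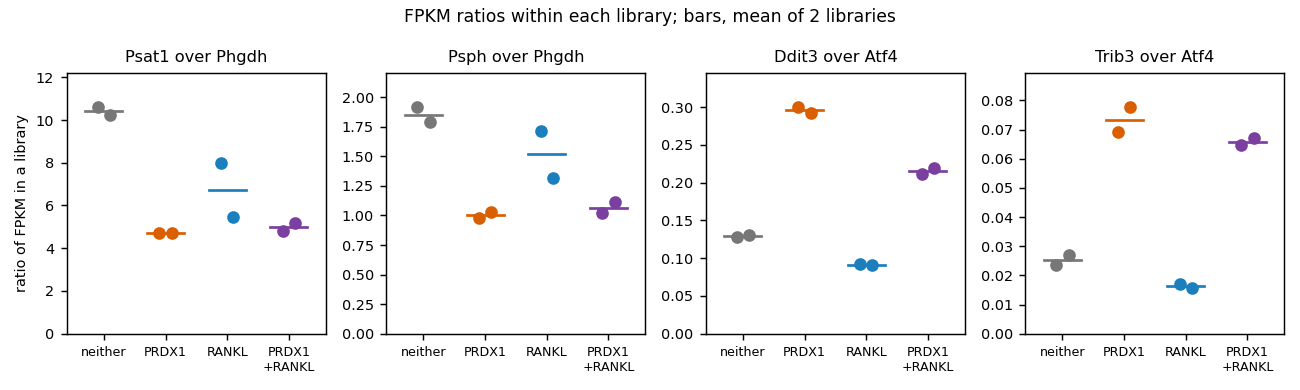
Ratio of the FPKM of 2 genes within each library (vertical axes, linear from 0) by group (horizontal axis), with a point per library and a bar at the mean of 2 libraries. Psat1 and Psph relative to Phgdh were lower in the 4 libraries with PRDX1 than in the other libraries, and Ddit3 and Trib3 relative to Atf4 were higher there.

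Counted by comparison, RANKL without PRDX1 raised 4 of the 10 genes, *Chac1*, *Asns*, *Phgdh* and *Shmt2*, against 11.8% of all genes tested called higher. The median log2 fold change of the 10 genes was 0.43, and that of all genes was 0.10. The former was 0.35 with quantile normalization, 0.36 with scaling to the upper quartile and 0.47 with voom, beside 0.02, 0.03 and 0.13. Over all genes 1383 were called higher and 1165 lower, and 1096 and 1327 with quantile normalization or 1135 and 1317 with scaling to the upper quartile. PRDX1 without RANKL raised 4, *Ddit3*, *Trib3*, *Asns* and *Phgdh*, against 3.80% of all genes, with a median of 0.37 beside -0.04. PRDX1 with RANKL raised 2, *Ddit3* and *Trib3*, against 6.03% of all genes, with a median of -0.03 beside -0.06. The median changed sign when single libraries were left out, from -0.12 without no PRDX1 + RANKL replicate 1 to 0.06 without no PRDX1 + RANKL replicate 2. RANKL with PRDX1 raised 1, *Shmt2*, against 4.52% of all genes, with a median of 0.19 beside 0.07. In that comparison 529 genes were called higher and 466 lower, and 430 and 597 with scaling to the upper quartile.

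No gene of the 10 was called lower in these 4 comparisons by limma, and none with voom. The share of all genes called lower was 9.96% for RANKL without PRDX1, 1.99% for PRDX1 without RANKL, 4.17% for PRDX1 with RANKL and 3.98% for RANKL with PRDX1. At an unadjusted p under 0.05, 3 were lower for RANKL without PRDX1, 1 for PRDX1 without RANKL, 4 for PRDX1 with RANKL and 1 for RANKL with PRDX1. The comparison of RANKL without PRDX1 shares the no PRDX1 + RANKL libraries with that of PRDX1 with RANKL, and the untreated libraries with that of PRDX1 without RANKL. The 2 PRDX1 comparisons share no library.

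The interaction, which tests whether the change by PRDX1 differed with RANKL (and equally whether the change by RANKL differed with PRDX1), was called for *Chac1* and *Phgdh*, both negative, against 4.35% of all genes called lower and 4.50% called higher. For *Chac1* it was -0.70 ± 0.15 (SE, limma, adjusted p = 0.00711), since RANKL gave 1.28 without PRDX1 and 0.58 with it. For *Phgdh* it was -0.65 ± 0.15 (SE, limma, adjusted p = 0.0121), since PRDX1 gave 0.79 without RANKL and 0.14 with it. Both calls rested on no PRDX1 + RANKL replicate 2, the library with the higher value of each gene in its group: without it the interaction was -0.55 for *Chac1* and -0.47 for *Phgdh*, under the fold of 1.5. That of *Phgdh* also lost its call without PRDX1 + RANKL replicate 2 (adjusted p = 0.0504) and with no filter on low values (adjusted p = 0.0576). *Asns* had an interaction of -0.56 ± 0.09 (SE, adjusted p = 0.00165), a fold of 1.47, which was called at -0.59, -0.64 and -0.59 without no PRDX1 + no RANKL replicate 1, PRDX1 + no RANKL replicate 2 and PRDX1 + RANKL replicate 1. For *Shmt2* and *Psat1* the interaction was -0.08 (95% interval -0.34 to 0.18) and -0.003 (-0.18 to 0.17).

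**Figure D3:**
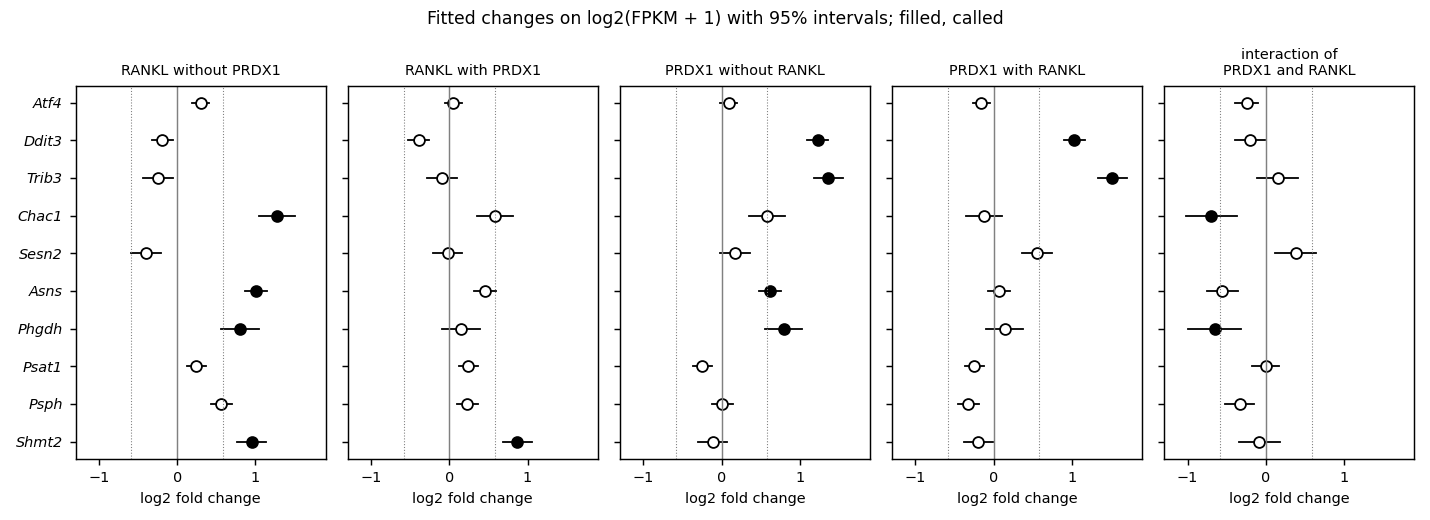
Fitted log2 fold change on log2(FPKM + 1) of each of the 10 genes (horizontal axes) with its 95% interval, one panel for each comparison, with dotted lines at a fold of 1.5 in either direction and filled points for genes called. PRDX1 raised Ddit3 and Trib3 with and without RANKL, whereas its changes of Asns and Phgdh were 0.62 and 0.79 without RANKL and 0.07 and 0.14 with it.

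Markers of other cell types moved with PRDX1 as well. Of the 8 neutrophil markers, 4 of the 5 tested were called higher by PRDX1 without RANKL and 3 with RANKL, where 3.80% and 6.03% of all genes were. Their summed FPKM was 8.19 to 12.2 in the untreated libraries, 38.8 to 43.3 with PRDX1, 16.2 to 16.6 with RANKL and 34.0 to 37.6 with both. Most of it was *S100a8* and *S100a9* (mean FPKM 4.151 and 4.312 untreated, 17.22 and 19.49 with PRDX1). *Ly6g*, *Camp* and *Ltf* had at most 8, 17 and 30 reads in any library. Of the 8 stromal cell markers, 3 of the 5 tested were called higher by PRDX1 in both comparisons, and 4 without RANKL and 5 with it by voom, and the sums were 12.2 to 16.0, 24.95 to 25.16, 12.26 to 14.04 and 24.2 to 28.9 in the same order of groups. *Lum* had at most 2 reads in any library. By voom, 607 of the 11700 genes were called higher by PRDX1 without RANKL and 960 with it. Of the 7 dendritic cell markers, 2 were tested and both were called higher by PRDX1 without RANKL, and 1 by limma and 2 by voom with RANKL, with sums of 1.77 to 1.83 in the untreated libraries, 3.75 to 4.22 with PRDX1, 2.57 to 2.81 with RANKL and 5.10 to 6.37 with both. The 8 lymphocyte markers, none of which reached the level for testing, summed to 0.730 to 0.960 in the untreated libraries, 1.57 to 2.08 with PRDX1, 0.617 to 0.985 with RANKL and 1.43 to 1.61 with both, with *Cd3e* and *Ncr1* at 0 in all 8. *Elane* (neutrophil, mean FPKM 0.322 and 0.332) and *Cxcl12* (stromal, 0.463 and 0.422) lay under 0.5 in the untreated and RANKL groups. With PRDX1 they lay above it, as did the dendritic *Ccr7* (0.06 untreated, 0.6805 with RANKL, 0.9965 with PRDX1, 2.338 with both). These genes were tested through the libraries with PRDX1, so the shares called higher depend in part on the filter. Whether cells of these types were present or took part in the rise of *Ddit3*, *Trib3*, *Asns* and *Phgdh* was not tested. The osteoclast markers, of which all 9 tested rose with RANKL without PRDX1 and fell with PRDX1 in the presence of RANKL, moved with *Chac1*, *Asns*, *Phgdh* and *Shmt2* in the first of these comparisons and not in the second, in which limma and voom called none of those 4 genes and 1, *Shmt2*, was lower at an unadjusted p under 0.05. Of all genes, 11.8% were called higher for RANKL without PRDX1 and 4.17% lower for PRDX1 with RANKL. By PRDX1 without RANKL, where *Asns* and *Phgdh* rose, 3 of the 9 osteoclast markers were called higher and 1 lower. The shares of all genes there were 3.80% and 1.99%. By RANKL with PRDX1, where *Shmt2* rose, 7 were called higher, against 4.52% of all genes. The part of the osteoclast markers in the rise of these 4 genes was not tested.

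The amino acid transporters, which bring in the substrates of the pathway, included genes that rose with PRDX1 and others that rose with RANKL. *Slc7a11*, the cystine and glutamate exchanger, had FPKM values of 0.832 and 0.875 in the untreated libraries, 5.92 and 5.48 with PRDX1, 1.77 and 1.29 with RANKL, and 7.56 and 7.42 with both. PRDX1 gave a log2 fold change of 1.85 ± 0.10 (SE, limma, adjusted p = 1.16e-06) without RANKL and 1.75 ± 0.10 (adjusted p = 8.36e-07) with RANKL. Its partner chain *Slc3a2* rose by 0.69 in the absence of RANKL (adjusted p = 3.73e-05) and by 0.998 in its presence (adjusted p = 1.45e-06), and fell by 0.88 with RANKL alone (adjusted p = 1.29e-06). The glutamine and serine carrier *Slc1a5* rose with RANKL (1.48, adjusted p = 1.39e-08) and was lower with PRDX1 in the presence of RANKL (-0.74, adjusted p = 5.79e-06). *Slc38a2* rose with RANKL without PRDX1 (0.85, adjusted p = 2.9e-07). Of the 9 transporters tested, out of 11, 3 were called higher and 1 lower for RANKL without PRDX1, and 5 and 1 by voom, the third of the higher ones by limma being *Slc6a9*, named after its value was seen. Of all genes, 11.8% were called higher and 9.96% lower there by limma, and 1796 and 1407 of the 11700 by voom. PRDX1 raised *Slc7a11* and *Slc3a2* in both comparisons, where 3.80% of all genes were called higher without RANKL and 6.03% with it. It lowered *Slc1a5* with RANKL, where 4.17% of all genes were called lower.

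The aminoacyl-tRNA synthetases, many of them ATF4 targets, included genes that rose with RANKL. All 20 were tested, and the log2 change by RANKL without PRDX1 was positive in all 20 (median 0.51), with 6 called higher where 11.8% of all genes were, among them *Dars* (0.72, limma, adjusted p = 1.71e-06), *Gars* (0.72, adjusted p = 2.06e-06) and *Lars* (0.69, adjusted p = 4.91e-06). With PRDX1 present, RANKL gave a median of 0.31 and 2 calls among the 20 (4.52% of all genes were called higher), *Mars* and *Vars*, both named after their values were seen. By PRDX1, limma and voom each called 0 of the 20. At an unadjusted p under 0.05, 1 was higher and 3 lower without RANKL, and 1 higher and 15 lower with RANKL, where the median was -0.21 (*Farsb* -0.44, *Dars* -0.41, *Qars* -0.31).

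Of the 22 other ATF4 targets, 17 were tested, and PRDX1 called 5 higher and 1 lower without RANKL and 4 higher and 1 lower with RANKL. Of all genes, 3.80% were higher and 1.99% lower in the former comparison, and 6.03% and 4.17% in the latter. RANKL without PRDX1, with 11.8% of all genes called higher and 9.96% lower, called 5 higher and 3 lower, among them, named after their values were seen, *Ppp1r15a*, *Pycr1* and *Eif4ebp1* higher and *Gdf15* and *Ndrg1* lower. *Atf3*, a stress-induced repressor, was at 34.5 and 37.5 FPKM in the untreated libraries, 68.6 and 67.9 with PRDX1, 5.0 and 4.3 with RANKL, and 25.2 and 23.4 with both. Its log2 change was 0.91 (limma, adjusted p = 1.3e-05) by PRDX1 without RANKL, 2.16 (adjusted p = 1.65e-08) by PRDX1 with RANKL and -2.71 (adjusted p = 8.33e-10) by RANKL alone. *Atf5* rose by PRDX1 without RANKL (0.76, adjusted p = 2.51e-05) and with it (0.91, adjusted p = 3.45e-06). *Cebpb* and *Sqstm1*, named after their values were seen, were the others called higher in both PRDX1 comparisons, and *Ndrg1*, named likewise, was the gene called lower without RANKL. *Nupr1*, a stress-induced chromatin protein, rose with RANKL (1.67, adjusted p = 4.37e-09) and with PRDX1 (0.75, adjusted p = 8.52e-06) given alone, as *Asns* and *Phgdh* did. *Jdp2*, an AP-1 family member needed for osteoclast formation, rose by 3.72 with RANKL without PRDX1 (adjusted p = 3.26e-11) and fell by 2.22 with PRDX1 in the presence of RANKL (adjusted p = 6.2e-09).

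The list of 13 sensors and regulators of eIF2 phosphorylation, which act upstream of ATF4, also holds subunits of eIF2B. RANKL without PRDX1 called 2 of the 13 higher, both of them such subunits. These were *Eif2b1* (0.80, limma, adjusted p = 7.52e-06) and *Eif2b3* (0.72, adjusted p = 9.35e-05). It called 1 lower, *Impact* (-0.71, adjusted p = 2.33e-05), whose product restrains the sensor GCN2. Of all genes, 11.8% were called higher and 9.96% lower in that comparison. By PRDX1, limma and voom called 0 of the 13 in either comparison, with 1 higher and 1 lower at an unadjusted p under 0.05 without RANKL and 2 higher and 8 lower with RANKL.

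The IRE1 and ATF6 arm of the unfolded protein response refills the endoplasmic reticulum with chaperones. Of its 20 genes, 18 had a negative log2 change by PRDX1 without RANKL (median -0.32, all genes -0.04), 17 at an unadjusted p under 0.05, and 2 were called lower, as were 1.99% of all genes. These were *Sdf2l1* (-0.65, limma, adjusted p = 1.5e-05) and *Herpud1*, the latter named after its value was seen. *Hsp90b1* (-0.56, adjusted p = 4.32e-05) and *Pdia6* (-0.56, adjusted p = 1.68e-05) were under the fold of 1.5. RANKL without PRDX1 gave a median of -0.26 and called *Sdf2l1* (-0.80, adjusted p = 6.32e-07) and *Pdia6* (-0.63, adjusted p = 1.27e-06) lower, 2 of the 20 genes where 9.96% of all genes were called lower. By PRDX1 with RANKL the median was -0.14, with 0 called by limma and voom and 1 higher and 10 lower at an unadjusted p under 0.05 (*Sec61b* -0.57, *Edem1* -0.42, *Atf6* -0.39).

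Of the 15 one-carbon folate enzymes, RANKL without PRDX1 called 2 higher and 2 lower by limma, where 11.8% of all genes were higher and 9.96% lower. By voom it called 5 higher and 2 lower, where 1796 of the 11700 genes were called higher and 1407 lower. The higher ones by limma were the cytosolic *Shmt1* (1.12, limma, adjusted p = 8.6e-06) and *Fpgs*, which retains folate in cells (0.77, adjusted p = 6.67e-05). The lower ones were *Ggh*, which releases it (-0.65, adjusted p = 7.42e-05, but -0.52 and not called without no PRDX1 + RANKL replicate 2), and *Mthfd2l*, named after its value was seen. PRDX1 with RANKL raised *Ggh* (0.77, adjusted p = 4.86e-05) and lowered *Shmt1* (-0.60, adjusted p = 0.00116) and *Aldh1l1* (-0.77, adjusted p = 5.29e-05), where 6.03% of all genes were called higher and 4.17% lower. The call of *Shmt1* was lost without no PRDX1 + RANKL replicate 2 (-0.48), without PRDX1 + RANKL replicate 1 (-0.54), with quantile normalization (-0.57) and with scaling to the upper quartile (-0.58). PRDX1 without RANKL called 0 by limma, with 3 higher and 5 lower at an unadjusted p under 0.05. Voom called 1 higher and 1 lower, where it called 607 and 397 of all 11700 genes.

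Of the 16 genes that use serine and glycine, 13 were tested. RANKL without PRDX1 called 4 higher, with *Gart* of purine synthesis (0.79, limma, adjusted p = 1.12e-06) and *Gcsh* of glycine cleavage (0.70, adjusted p = 3.7e-06) first and *Ahcy* (0.62, adjusted p = 7.47e-06) among them, the other being *Mtr*, named after its value was seen. It called 1 lower, *Gclc* of glutathione synthesis (-0.88, adjusted p = 3.49e-07). The shares of all genes were 11.8% higher and 9.96% lower. By PRDX1, limma and voom called 0 of the 13, with 3 higher and 3 lower at an unadjusted p under 0.05 without RANKL and 3 higher and 7 lower with RANKL (*Gclc* 0.46, *Ahcy* -0.45, *Gss* -0.38).

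**Figure D4:**
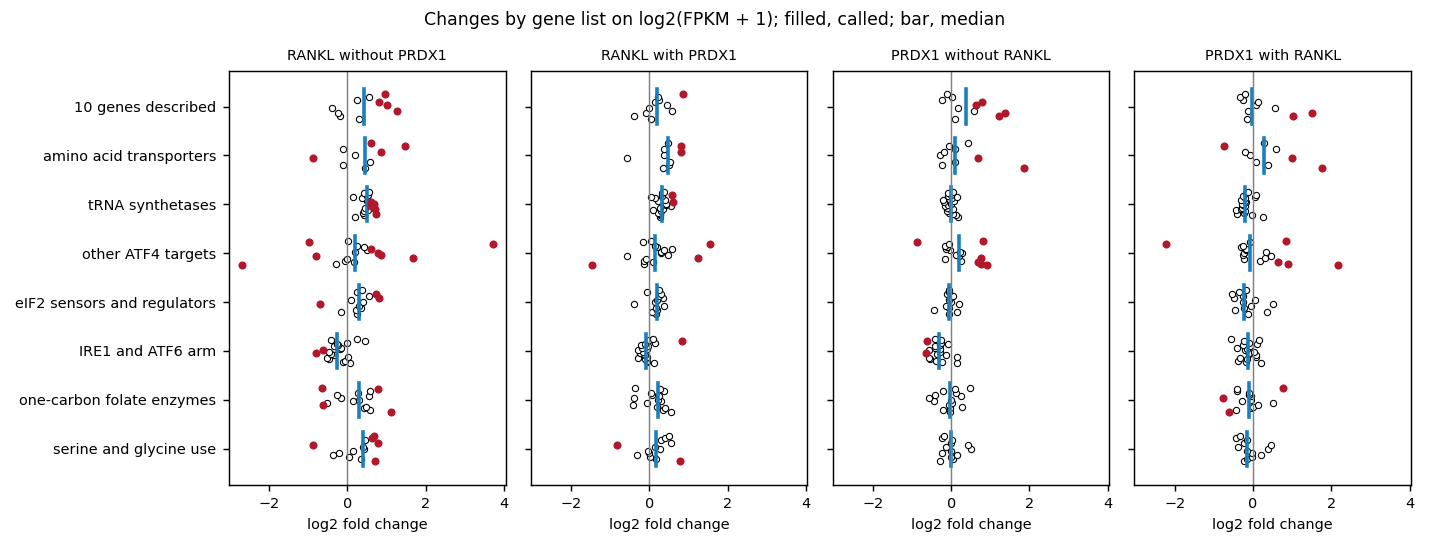
Log2 fold change on log2(FPKM + 1) of each gene tested (horizontal axes, one panel for each comparison) by gene list, with filled points for genes called and a bar at the median of the list. The tRNA synthetases lay above 0 in the RANKL comparisons (medians 0.51 without PRDX1 and 0.31 with it) and at a median of -0.01 for PRDX1 without RANKL, where the IRE1 and ATF6 arm had a median of -0.32.

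Among the 5259 genes tested whose highest and lowest of the 8 libraries were at least 1.5-fold apart on log2(FPKM + 1), those most like *Phgdh* by Pearson's r were *Slc27a1* (0.987), *Pnpla7* (0.981), *Klf10* (0.969), *Ryk* (0.965) and *Msrb1* (0.965), and 11 genes had an r over 0.95. Those most like *Asns* were *Zbtb18* (0.996), *Adh7* (0.994), *Fos* (0.989), *Resf1* (0.987) and *Col18a1* (0.986), with 92 genes over 0.95. The 8 points fall into 4 groups, so that these values describe the order of the groups. Between the 10 genes themselves, r was 0.98 for *Ddit3* and *Trib3*, 0.97 for *Chac1* and *Asns*, 0.92 for *Asns* and *Phgdh*, and -0.03 for *Phgdh* and *Psat1*. For *Atf4* it was 0.92 with *Psph*, 0.89 with *Chac1*, 0.83 with *Shmt2*, 0.80 with *Asns*, 0.68 with *Phgdh* and 0.62 with *Psat1*. It was -0.68 with *Sesn2*, -0.27 with *Ddit3* and -0.26 with *Trib3*.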

How the data were processed

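RNA-seq of 8 libraries, 2 in each of 4 groups set by the sample labels, was analysed. The authors aligned reads to mm10 (HISAT2, HOMER and DESeq2 are named in the submitters' processing notes, with versions not given in the sources used here) and deposited FPKM values per RefSeq gene, counted on exons from both strands and with one transcript kept for each gene, per the file header. Counting without strand can mix reads of overlapping genes. FPKM times transcript length came in whole steps of a size fixed per library (within 0.1 reads, 100% of the genes checked), which gave back the reads. Here log2(FPKM + 1) was fitted with limma 3.58.1 in R 4.3.3 (intensity trend, one model of 4 groups, 4 residual degrees of freedom before moderation) for the 11700 of 25124 genes whose mean FPKM reached 0.5, with Benjamini-Hochberg adjustment over all genes tested. The study's cutoffs, a fold of 1.5 and a false discovery rate of 0.05, were used. Permutation of 2 against 2 libraries cannot go below p = 0.333 and was not used. The steps were tested on simulated data with changes set in the no PRDX1 + RANKL group only, and the interaction was not examined there. All 10 promoters matched a RefSeq entry of GRCm38.p6. The members and gene lists were chosen with earlier results of these data known. Beside the 10 genes, the text names, in each of 7 lists, the 3 genes with the largest change by RANKL without PRDX1 and the 3 by PRDX1 with RANKL, and the 5 genes most like *Phgdh* and *Asns*. Alternatives were a pseudocount of 0.1, no filter, quantile normalization, upper quartile scaling, voom on the reads, a fit of only the groups compared, a replicate block, and each library left out. Proteins were not analysed here. Erythroid markers are not reported here.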

Additional observations from a re-analysis of the deposited data

Results flagged for a closer look

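In a test of the difference itself, the change by PRDX1 was called different with and without RANKL for 2 of the 10 genes. At an adjusted p under 0.05 without the fold of 1.5, limma gave 1 gene with a positive difference and 5 with a negative one. Under that fold were *Asns* (-0.56, adjusted p = 0.00165), *Psph* (-0.33, adjusted p = 0.0173), *Atf4* (-0.25, adjusted p = 0.0256) and *Sesn2* (0.38, adjusted p = 0.0436). For *Chac1* the difference was -0.70 (limma, adjusted p = 0.00711), PRDX1 having changed it by 0.58 (log2) in the absence of RANKL and by -0.12 in its presence. For *Phgdh* it was -0.65 (limma, adjusted p = 0.0121), with changes of 0.79 and 0.14. In both genes no PRDX1 + RANKL replicate 2 was above replicate 1, at 6.79 against 5.34 FPKM for *Chac1* and 12.9 against 9.69 FPKM for *Phgdh*, and without that library the differences were -0.55 and -0.47, under the fold of 1.5, so that neither was called. The difference for *Phgdh* also missed the threshold without PRDX1 + RANKL replicate 2 (limma, adjusted p = 0.0504) and with no filter on low values (limma, adjusted p = 0.0576).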

How the results depend on the processing

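Of 740 values of the 10 genes under the alternatives, 705 kept their direction and their side of the threshold, 18 passed it, 5 lost it and 12 changed sign, and none of the changes of sign had an adjusted p under 0.05. With a library left out its group has 1 library, which is assumed to vary like the other groups. The number of the 10 genes called for RANKL with PRDX1 became 2 with a pseudocount of 0.1 and with voom, and ranged from 1 to 2 when libraries were left out. That of the interaction became 1 with no filter on low values and ranged from 0 to 3, being 0 without no PRDX1 + RANKL replicate 2, 1 without PRDX1 + RANKL replicate 2 and 3 without no PRDX1 + no RANKL replicate 1. Signs changed for *Atf4*, RANKL with PRDX1 (-0.0364, upper quartile scaling), and for the interaction of *Psat1* (0.0356, quantile normalization). When libraries were left out, the change by PRDX1 without RANKL ranged from -0.0157 to 0.0352 for *Psph*, and that with RANKL from -0.268 to 0.0284 for *Chac1* and from -0.048 to 0.326 for *Phgdh*. RANKL with PRDX1 ranged from -0.0418 to 0.0024 for *Sesn2*, and the interaction from -0.0691 to 0.063 for *Psat1* and from -0.192 to 0.0291 for *Shmt2*. The cause was not tested.

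Replicate numbers did not pair the libraries (correlations of same-numbered deviations from 0.00847 to 0.0965). With the replicate block the genes called were 4, 4, 2, 1 and 2 in the order RANKL without PRDX1, PRDX1 without RANKL, PRDX1 with RANKL, RANKL with PRDX1 and interaction, as without it, and 1386 genes of all were called higher for RANKL without PRDX1 against 1383. Over all genes tested, 233 were called lower for PRDX1 without RANKL, 360 with a pseudocount of 0.1 and 397 with voom. Depth limits *Chac1* most, with 85 to 407 reads in a library.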
